A study of Mus musculus with 8 samples.

Results

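Scid.adh.2c2 cells, a mouse cell line that resembles pro-T cells, were transduced with retroviruses carrying either wild-type Runx1 (Runx1 WT) or a construct labelled Runx1 DN, and their RNA was sequenced. The comparison described here sets the 2 Runx1 WT libraries against the 2 Runx1 DN libraries across all 24505 genes of the deposited count table, 4 of the 8 libraries of the series. All of these retroviruses were labelled with GFP, infected cells were sorted 2 days after infection, and RNA came from 300000 cells per sample. The 2 libraries of mock-transduced cells are given below for their levels and, unless an alternative fit is named, entered no test. The 2 Satb1 libraries of the series were not part of the comparison. They entered only alternative fits, where named, and a closing description of Cd7 levels. The labels do not expand DN, which for Runx proteins commonly means a dominant negative form, nor do they give its sequence. The cells are 1 established line grown in culture, every construct was delivered by retrovirus, and nothing in the labels says that replicates came from separate cultures, so the spread behind each p-value is that among these libraries and may be technical.

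Runx proteins are transcription factors that bind a short DNA element through their Runt domain together with the partner Cbfb, and they recruit activators or repressors to the genes they bind. Dominant negative forms of Runx1 commonly keep DNA binding but lack the parts needed for transcriptional activation, so that they compete with the cell's own Runx proteins. In the thymus, Runx1 and Runx3 are required for the passage from progenitor to committed T cell, for silencing of Cd4 and for the cytotoxic programme, and the pro-T stage that the cell line resembles depends on Notch signals and on interleukin 7.

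The Runx1 WT libraries held 26866359 and 26504378 counts, the Runx1 DN libraries 23624498 and 27135363, and no library of the series exceeded 33093330. Levels are given as CPM, counts scaled to library size and TMM factor, with replicate 1 before replicate 2, and differences as log2 fold changes of Runx1 WT over Runx1 DN with their standard errors, from edgeR's quasi-likelihood test (Benjamini-Hochberg adjustment, 12529 genes tested, 2 libraries per group, two-sided). A gene was called higher or lower in Runx1 WT at an adjusted p under 0.05. Replicate libraries differed by an SD of 0.301 on the log2 scale over genes in Runx1 WT and 0.312 in Runx1 DN, against 1.36 between the group means. The pro-T markers Bcl11b, Tcf7, Gata3, Notch1, Il2ra, Ptcra, Cd3e, Cd3g, Thy1, Rag1 and Lck had counts in all 4 libraries, while Dntt, the terminal transferase of this stage, was scarce, with 17 and 14 counts in Runx1 WT, against 11 and 12 in Runx1 DN. For a gene with no count in a group, the stated fold is a lower bound that puts 3 counts over the whole group in place of 0. Such bounds and all intervals (95% level) cover counting error only. The library kit does not mark the strand, so genes that overlap another row are uncertain by the reads they share with it. Those described below include Lck, Lat, Notch1, Itgae, Ctsw, Cxcr6, Cd74, Runx2, Il1b, Igf2, H19, Foxp3 and Foxm1. They also include Ptpn5, Sprn, Man1c1, Tnnt3, Il27ra, B2m, Cpa3, Zeb2, Bcl2, Rbl2, Rb1, Ccnd3, Atp5b, Hdac7, Dnmt3a, Igf2r, Mest and Peg3.

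Runx1 itself was abundant in both groups, and more so with the DN construct. It had 214392 and 232610 counts in Runx1 WT, against 509871 and 673390 in Runx1 DN and 3643 and 4054 in mock. These were 0.798% and 0.878% of all counts in Runx1 WT, against 2.16% and 2.48% in Runx1 DN. The reads carry the construct and the cell's own gene together, and the groups with a Runx1 construct lay far above mock. The log2 fold change of Runx1 WT over Runx1 DN was -1.51 ± 0.15 (adjusted p = 3.8e-05, edgeR). The other 2 Runx genes were higher in Runx1 WT. Runx3 (chr4:134676560-134733905, mm9), the Runx factor of cytotoxic T cells, had 244 and 309 CPM in Runx1 WT, against 32.7 and 31.7 in Runx1 DN and 29.4 and 40.1 in mock. Its levels in Runx1 DN overlapped those in mock, and both Runx1 WT libraries lay above them, with a log2 fold change of 3.10 ± 0.13 (adjusted p = 1.7e-07, edgeR). Runx2, the Runx factor of bone formation, was rare, with 45 and 58 counts in Runx1 WT, against 0 and 1 in Runx1 DN. The ratio of Runx1 WT over Runx1 DN was 95.3 (16.7 to 3800), and the fitted log2 fold change was 6.27, 5.48 with Runx1 DN replicate 1 left out and 8.62 with replicate 2 left out. Cbfb, the shared partner, differed little, at 143 and 147 CPM in Runx1 WT, against 119 and 110.4 in Runx1 DN (log2 fold change 0.34 ± 0.083), and was no longer called without Runx1 DN replicate 2.

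The transcriptomes of the 2 groups differed widely. Of the 12529 genes tested, 4266 were higher in Runx1 WT, 34.0% of all, and 4062 were lower, 32.4%, together 66.5%, with a median log2 fold change over all genes of 0.011. That median and the balance of directions depend on the scaling, which centres fold changes near 0. The median was 0.051 with library totals alone and -0.074 with upper-quartile scaling, which called 3831 higher and 4650 lower. At least 2-fold differences numbered 2104 higher (16.8%) and 1242 lower (9.91%), at least 8-fold differences 570 higher (4.55%) and 240 lower (1.92%), and at least 32-fold differences 201 higher and 106 lower. Among called genes, 64 had no count in either Runx1 DN library and 43 had none in either Runx1 WT library. In 83.5% of the genes tested the libraries of the 2 groups did not overlap. The share called grew with abundance, from 41.5% of genes under 1 CPM to 79.5% of those above 1000 CPM. The counts for gene lists below are to be read against these shares. Set beside mock, the mean mock level lay between the 2 groups for 392 of the 570 genes at least 8-fold higher, below both for 169 and above both for 9. Of the 240 genes at least 8-fold lower in Runx1 WT, mock lay between the groups for 175, below both for 63 and above both for 2.

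**Figure D1:**
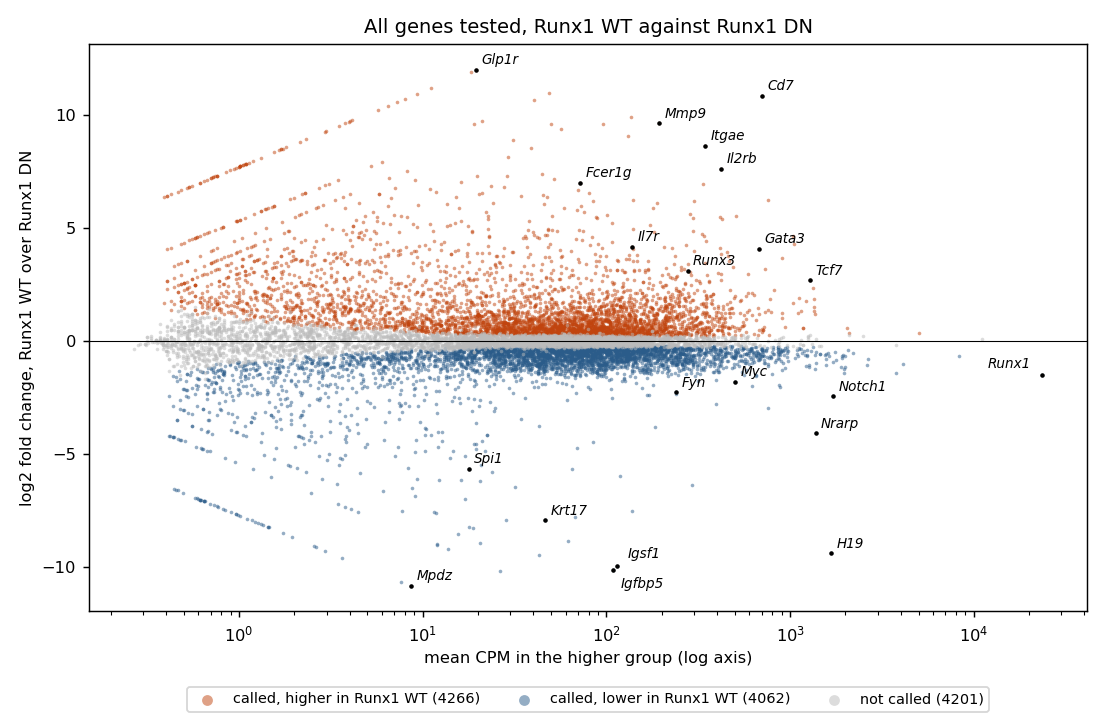
Each point is a gene, with its mean CPM in the higher group on the x axis (log axis) and its log2 fold change of Runx1 WT over Runx1 DN on the y axis. Points are coloured by whether the gene was called higher, lower or not called, and named genes are marked. Cd7 stands at 10.84 among the genes higher in Runx1 WT and H19 at -9.39 among those lower, while called genes lie on both sides across the range of levels.

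Among the 20 genes of largest difference upward were Cd7, Nkg7 and Cst7, genes of T or cytotoxic cells. Cd7 (chr11:120898063-120900792, mm9), an immunoglobulin superfamily receptor on T and NK cells, had 20448 and 17588 counts in Runx1 WT, against 11 and 8 in Runx1 DN and 31 and 36 in mock. Mock lay with Runx1 DN, near 0 on the scale of Runx1 WT. The log2 fold change was 10.84 ± 0.19 (adjusted p = 4.7e-09, edgeR), from 755 and 651 CPM in Runx1 WT, against 0.474 and 0.298 in Runx1 DN. Mmp9, a secreted gelatinase, had 4937 and 5525 counts in Runx1 WT, against 5 and 7 in Runx1 DN and 3 and 6 in mock (log2 fold change 9.63 ± 0.17). Nkg7, a granule protein of cytotoxic lymphocytes, had 94.1 and 97.4 CPM in Runx1 WT, against 0.129 and 0.112 in Runx1 DN and 0.581 and 1.01 in mock (log2 fold change 9.58 ± 0.18). The groups did not overlap for any of these. Genes without a count in Runx1 DN included Glp1r, the receptor for glucagon-like peptide 1, with 534 and 522 counts in Runx1 WT and thus at least 326-fold higher, and Sdc2, a cell-surface heparan sulfate proteoglycan, with 434 and 552 counts and at least 304-fold higher. Foxs1, a forkhead factor, was at least 185-fold higher, Slc26a4, an anion exchanger, at least 156-fold, and Cst7, a cathepsin inhibitor of cytotoxic cells, at least 133-fold. Ptchd3 was at least 109-fold higher. The acute phase genes Saa1 and Saa2, whose sequences are nearly identical so that reads may be split between them, belonged here as well. Saa1 had 205 and 189 counts in Runx1 WT and none in Runx1 DN (at least 122-fold higher). Saa2 had 1460 and 1186 counts in Runx1 WT, against 0 and 1 in Runx1 DN, a ratio of 2448 (439 to 96733), and its fitted log2 fold change of 10.95 was 10.16 with Runx1 DN replicate 1 left out and 13.29 with replicate 2 left out. Ptpn5, a tyrosine phosphatase best known from neurons, had 3497 and 3883 counts in Runx1 WT, against 4 and 3 in Runx1 DN (log2 fold change 9.88 ± 0.19). Of the remaining genes among the 20, Atp12a, Sprn, Mier2 and Neurod4 had no count in Runx1 DN and were at least 63.2-fold to 68.8-fold higher. Sec16b, Gja5 and Gucy2e had a single count in Runx1 DN, in replicate 1, and Fam179a had 3. The ratios of Runx1 WT over Runx1 DN were 2011 (361 to 79484) for Sec16b, 1047 (188 to 41404) for the gap junction gene Gja5, 951 (170.3 to 37604) for Gucy2e and 836 (286 to 4058) for Fam179a. The fitted log2 fold changes of Sec16b (10.66), Gja5 (9.72) and Gucy2e (9.58) were 13.07, 12.13 and 11.99 without Runx1 DN replicate 1, and 9.70, 8.76 and 8.62 without Runx1 DN replicate 2.

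Downward, the 20 genes of largest difference included H19, Igf2 and Igf2os, which lie near each other. H19 (chr7:149761435-149764051, mm9), an imprinted long noncoding RNA, had 2.25 and 2.74 CPM in Runx1 WT, against 1598 and 1750 in Runx1 DN and 24.4 and 27.8 in mock. Both Runx1 DN libraries stood far above every other library, at a log2 fold change of -9.39 ± 0.16 (adjusted p = 4.7e-09, edgeR). Igfbp5, which binds insulin-like growth factors, had 0 and 5 counts in Runx1 WT, against 2267 and 3236 in Runx1 DN and 13 and 27 in mock. Its fitted log2 fold change of -10.13 was -9.17 with Runx1 WT replicate 1 left out and -14.45 with replicate 2 left out. Igsf1, an immunoglobulin superfamily membrane protein, had 4 and 2 counts in Runx1 WT, against 2637 and 3040 in Runx1 DN (log2 fold change -9.94 ± 0.19). Mpdz, a scaffold of cell junctions, had no count in Runx1 WT, against 169 and 268 in Runx1 DN, and was at least 157-fold lower, and Man1c1, a Golgi mannosidase, was at least 139-fold lower. Igf2, the growth factor whose gene neighbours H19, had 1 and 1 counts in Runx1 WT, against 344 and 435 in Runx1 DN and 1 and 4 in mock, a ratio of Runx1 DN over Runx1 WT of 421 (116 to 3482). The keratin gene Krt17 and the troponin gene Tnnt3 had log2 fold changes of -7.94 ± 0.20 and -7.93 ± 0.29. Ush1c, Sparcl1, a secreted matrix protein, Dmkn and Igf2os had no count in Runx1 WT and were at least 46.5-fold to 67.0-fold lower, Sparcl1 with 45 and 105 counts in Runx1 DN and a fitted -9.27 that was -8.66 without Runx1 DN replicate 2. The ratio of Runx1 DN over Runx1 WT was 741 (133 to 29328) for Lbp, which binds bacterial lipopolysaccharide, 646 (116 to 25571) for Otog, 560.4 (155 to 4634) for the growth factor gene Pdgfa, 777 (266 to 3773) for Filip1 and 320.3 (109 to 1556) for Ttc21a. The fitted values of Lbp (-9.20), Otog (-8.999), Pdgfa (-8.95) and Mgst1 (-8.84), a membrane glutathione transferase, were -11.45, -11.26, -8.03 and -9.60 without Runx1 WT replicate 1. Without Runx1 WT replicate 2, those of Lbp, Otog and Pdgfa were -8.35, -8.15 and -12.05. The last members of the 20, Il1b and Tnni2, are described below.

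The promoters of 10 genes are shown because these are the listed genes of largest difference, 5 in each direction, among called genes with no overlap between groups, at least 10 CPM in the higher group and a matched promoter window. Nkg7, Gzmb, Fcer1g, Il17rb and Tnfrsf9 were higher in Runx1 WT, and Il1b, Igf2, Hes5, Cybb and Nrarp were lower. Each is the first RefSeq window given for the gene's symbol, 250 bases before to 50 after a start, in build GRCm38.p6. For a gene with several starts, this need not be the start of the counted transcript. The window is on the gene's own strand, with copies of the Runx core element TGTGGT or TGCGGT on either strand in capitals (ACCACA or ACCGCA where it lies on the opposite strand). Of the genes that were higher, Nkg7 (chr7:43436888-43437187, plus strand), Fcer1g (chr1:171234300-171234599, minus strand) and Il17rb (chr14:30008847-30009146, minus strand) hold 1 copy each, Gzmb (chr14:56262285-56262584, minus strand) holds 2, and Tnfrsf9 (chr4:150919905-150920204, plus strand) holds none in this window. Of the genes that were lower, Cybb (chrX:9469275-9469574, minus strand) holds 1, and Il1b (chr2:129371090-129371389, minus strand), Igf2 (chr7:142666767-142667066, minus strand), Hes5 (chr4:154960673-154960972, plus strand) and Nrarp (chr2:25180508-25180807, plus strand) hold none. No other motif was searched.
Nkg7: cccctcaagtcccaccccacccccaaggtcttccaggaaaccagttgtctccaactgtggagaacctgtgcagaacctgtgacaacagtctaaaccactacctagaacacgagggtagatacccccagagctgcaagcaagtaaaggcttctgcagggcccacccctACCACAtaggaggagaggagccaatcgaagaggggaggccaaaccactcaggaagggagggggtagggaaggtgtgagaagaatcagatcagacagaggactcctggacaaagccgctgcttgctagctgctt
Gzmb: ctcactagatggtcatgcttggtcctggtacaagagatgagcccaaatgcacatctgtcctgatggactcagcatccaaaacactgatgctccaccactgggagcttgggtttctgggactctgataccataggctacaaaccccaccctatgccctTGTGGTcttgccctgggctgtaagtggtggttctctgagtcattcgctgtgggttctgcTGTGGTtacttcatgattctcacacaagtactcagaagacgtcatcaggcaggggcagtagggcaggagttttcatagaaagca
Fcer1g: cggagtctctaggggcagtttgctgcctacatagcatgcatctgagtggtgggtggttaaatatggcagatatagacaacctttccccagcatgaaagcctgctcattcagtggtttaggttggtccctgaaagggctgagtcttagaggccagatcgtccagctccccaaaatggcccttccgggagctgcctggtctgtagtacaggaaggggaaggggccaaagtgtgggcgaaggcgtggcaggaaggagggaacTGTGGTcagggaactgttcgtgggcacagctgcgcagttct
Il17rb: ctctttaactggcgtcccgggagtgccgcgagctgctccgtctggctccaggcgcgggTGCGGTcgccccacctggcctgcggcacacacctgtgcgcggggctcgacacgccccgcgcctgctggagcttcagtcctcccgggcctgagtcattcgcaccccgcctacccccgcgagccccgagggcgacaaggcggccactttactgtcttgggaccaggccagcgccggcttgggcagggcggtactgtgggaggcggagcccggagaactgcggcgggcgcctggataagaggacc
Tnfrsf9: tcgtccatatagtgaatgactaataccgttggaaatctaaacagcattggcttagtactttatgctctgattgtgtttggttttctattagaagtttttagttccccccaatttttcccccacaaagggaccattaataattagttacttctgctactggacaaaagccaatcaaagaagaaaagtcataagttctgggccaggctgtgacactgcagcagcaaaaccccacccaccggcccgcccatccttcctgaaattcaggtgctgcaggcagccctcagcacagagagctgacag
Il1b: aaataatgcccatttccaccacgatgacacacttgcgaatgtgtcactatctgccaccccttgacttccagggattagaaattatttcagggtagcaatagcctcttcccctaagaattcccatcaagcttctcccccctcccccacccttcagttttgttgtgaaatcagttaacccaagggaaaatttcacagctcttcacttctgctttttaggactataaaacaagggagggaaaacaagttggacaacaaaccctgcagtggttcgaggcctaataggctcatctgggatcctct
Igf2: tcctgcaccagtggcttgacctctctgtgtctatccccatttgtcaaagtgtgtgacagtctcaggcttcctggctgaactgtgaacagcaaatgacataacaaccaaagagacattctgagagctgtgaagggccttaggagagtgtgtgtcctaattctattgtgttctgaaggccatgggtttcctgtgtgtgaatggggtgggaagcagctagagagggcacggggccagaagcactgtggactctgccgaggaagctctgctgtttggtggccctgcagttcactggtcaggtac
Hes5: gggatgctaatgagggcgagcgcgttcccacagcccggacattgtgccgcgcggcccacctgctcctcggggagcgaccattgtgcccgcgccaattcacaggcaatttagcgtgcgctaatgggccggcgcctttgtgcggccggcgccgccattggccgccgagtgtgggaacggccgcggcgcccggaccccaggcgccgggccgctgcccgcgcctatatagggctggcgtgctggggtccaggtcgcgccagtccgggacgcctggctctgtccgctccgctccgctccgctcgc
Cybb: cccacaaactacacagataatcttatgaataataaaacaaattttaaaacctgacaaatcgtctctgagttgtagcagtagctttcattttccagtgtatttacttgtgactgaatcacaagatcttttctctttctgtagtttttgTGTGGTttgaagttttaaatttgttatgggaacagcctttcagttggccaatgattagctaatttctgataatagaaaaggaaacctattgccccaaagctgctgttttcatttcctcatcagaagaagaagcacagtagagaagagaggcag
Nrarp: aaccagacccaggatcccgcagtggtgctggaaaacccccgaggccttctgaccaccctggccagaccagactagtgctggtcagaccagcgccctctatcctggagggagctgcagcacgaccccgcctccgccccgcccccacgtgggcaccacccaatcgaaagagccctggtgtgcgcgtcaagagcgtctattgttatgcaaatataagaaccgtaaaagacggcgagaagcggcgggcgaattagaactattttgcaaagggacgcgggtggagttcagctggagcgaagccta
Across the 9538 tested genes matched to such a window, the element occurred in 25.4% of genes at least 8-fold higher in Runx1 WT (21.4 to 29.8, n = 414, Wilson interval), in 23.8% of those 2-fold to 8-fold higher (n = 1103), in 21.0% of those 2-fold to 8-fold lower (n = 773), in 19.2% of those at least 8-fold lower (14.2 to 25.6, n = 182) and in 21.2% of the other 7066. In all 32851 windows of the table the share was 22.4%. The intervals of the extreme classes overlapped, and the differences between classes were not tested.

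T cell genes were mostly higher in Runx1 WT. Of 25 lineage regulators tested, 20 were higher and 2 lower, with a median log2 fold change of 1.17. Gata3 (chr2:9778705-9800227, mm9), a zinc finger factor needed from the earliest T cell stages, had 680.5 and 678 CPM in Runx1 WT, against 42.8 and 37.2 in Runx1 DN and 204 and 252 in mock. Mock lay between the 2 groups, and the log2 fold change was 4.09 ± 0.11 (adjusted p = 2.1e-08, edgeR). Tcf7, the T cell factor that acts downstream of Notch, had 1280 and 1284 CPM in Runx1 WT, against 192 and 204 in Runx1 DN and 1344 and 1347 in mock (log2 fold change 2.70 ± 0.10). For Tcf7, the Runx1 WT libraries stood near mock and the Runx1 DN libraries stood apart. Bcl11b, the factor that fixes T cell commitment, had 1075 and 1171 CPM in Runx1 WT, against 324 and 275 in Runx1 DN and 552 and 543 in mock, with Runx1 WT above mock and Runx1 DN below it (log2 fold change 1.91 ± 0.11). Ets1 (2.20), Lef1 (1.31), Ikzf2 (3.76), Hivep3 (3.03) and Id2 (1.73) were also higher, as was Zbtb16, the factor of innate-like T cells, at 12.1 and 18.02 CPM in Runx1 WT, against 0.388 and 0.410 in Runx1 DN. Ets2, a factor of the Ets family, was lower, at 18.7 and 19.9 CPM in Runx1 WT, against 82.5 and 76.8 in Runx1 DN (log2 fold change -2.04 ± 0.10).

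Components of the T cell receptor and its signalling showed the same direction with clear exceptions. Of 22 tested, 18 were higher and 3 lower (median 2.12), and mock lay between the groups for all 18 that were higher. Lck, the kinase that starts receptor signalling, had 594 and 588 CPM in Runx1 WT, against 72.7 and 78.1 in Runx1 DN and 322 and 319 in mock (log2 fold change 2.97 ± 0.091). Themis, a signalling adaptor of thymocytes, had 123 and 155 CPM in Runx1 WT, against 10.7 and 13.4 in Runx1 DN (log2 fold change 3.52 ± 0.15). Lat (3.13), Rasgrp1 (3.40), Lcp2 (2.26), Cd247 (2.32), Ubash3a (4.54) and Sh2d2a (3.76), which link the receptor to kinases, adaptors and Ras or restrain it, were higher in Runx1 WT without overlap. Ptcra, the pre-T cell receptor alpha chain and a known Notch target, was lower, at 20.7 and 16.6 CPM in Runx1 WT, against 114 and 100.3 in Runx1 DN and 77.6 and 75.6 in mock (log2 fold change -2.52 ± 0.13). Fyn, the kinase most like Lck in thymocytes, was lower too, at 47.7 and 52.1 CPM in Runx1 WT, against 246 and 232 in Runx1 DN and 31.6 and 32.4 in mock (log2 fold change -2.26 ± 0.090). The Runx1 DN libraries held the highest Fyn levels, and Runx1 WT lay slightly above mock.

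Among T cell surface proteins, 18 of 19 tested were higher and 1 was lower (median 2.68). Besides Cd7, Thy1, the pan-T glycoprotein, had 325 and 288 CPM in Runx1 WT, against 46.6 and 49.1 in Runx1 DN (log2 fold change 2.68 ± 0.10). Spn, also known as CD43, had 103 and 112 CPM in Runx1 WT, against 4.56 and 5.78 in Runx1 DN (4.37), and Ly6a, also known as Sca-1, had 201 and 255 CPM in Runx1 WT, against 12.5 and 13.7 in Runx1 DN (4.12), for which near-identical Ly6 copies make the count uncertain. Cd4, whose silencing is a textbook function of Runx proteins, was rare in all groups but higher in Runx1 WT, at 8.35 and 9.32 CPM in Runx1 WT, against 0.258 and 0.224 in Runx1 DN and 0.332 and 0.173 in mock (log2 fold change 5.18 ± 0.27). Of the recombination and pre-receptor genes, 6 of 12 were higher and 3 lower (median 0.44). Rag1, the recombinase subunit, had 125 and 112 CPM in Runx1 WT, against 33.1 and 32.2 in Runx1 DN and 537 and 430.2 in mock. Mock was highest, Runx1 WT next and Runx1 DN lowest, at a log2 fold change of Runx1 WT over Runx1 DN of 1.86 ± 0.10. Xrcc6 (-0.75) and Xrcc5 (-0.31), the Ku subunits of DNA end joining, were lower in Runx1 WT, though Xrcc5 was not called without Runx1 WT replicate 2 (-0.26) or without Runx1 DN replicate 2 (-0.20).

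**Figure D2:**
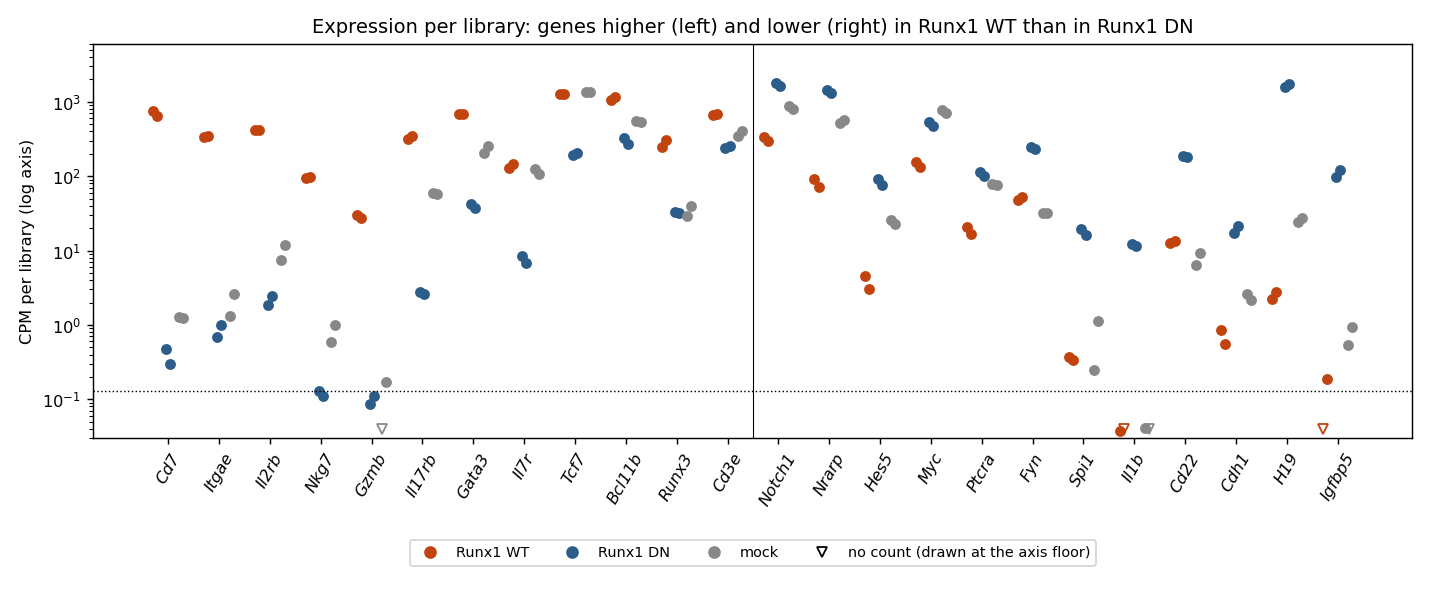
CPM on a log axis in each of the 2 Runx1 WT, 2 Runx1 DN and 2 mock libraries for 12 genes higher in Runx1 WT and 12 lower; each point is a library, open triangles mark libraries with no count and the dotted line is the highest level that 3 counts stand for in a library, 0.129 CPM. The Runx1 WT and Runx1 DN points do not overlap for any of the 24 genes; mock sits between them for Gata3 and Bcl11b and beside Runx1 WT for Tcf7.

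Notch receptors and targets mostly ran the other way. Of 15 tested, 9 were lower in Runx1 WT and 5 higher, with a median of -1.80. Notch1 (chr2:26313422-26359342, mm9), the receptor that drives T cell specification, had 337 and 298 CPM in Runx1 WT, against 1778 and 1653 in Runx1 DN and 893 and 794 in mock. The Runx1 DN libraries were highest, mock lay between and Runx1 WT was lowest (log2 fold change -2.43 ± 0.11, adjusted p = 3.2e-07, edgeR). Nrarp, a Notch target that feeds back on the pathway, had 91.7 and 72.3 CPM in Runx1 WT, against 1444 and 1313 in Runx1 DN and 515 and 569.8 in mock, in the same order (log2 fold change -4.07 ± 0.14). Hes5, a repressor that Notch induces, had 4.51 and 3.03 CPM in Runx1 WT, against 91.5 and 76.7 in Runx1 DN and 25.5 and 22.7 in mock (log2 fold change -4.48 ± 0.18). Dtx1 (-2.05), a target that modulates the receptor, Notch3 (-1.46), itself a receptor and target, and Myc (-1.80) were lower. Hey1, another Notch-induced repressor, was lower at a fitted -5.26, and -6.17 without Runx1 WT replicate 1. Il2ra, the interleukin 2 receptor alpha chain, was higher at 272 and 285 CPM in Runx1 WT, against 73.4 and 72.6 in Runx1 DN and 603 and 594 in mock (log2 fold change 1.93 ± 0.082), as was Igf1r (3.07), the receptor for insulin-like growth factor 1. For 8 of the 9 genes that were lower, mock lay between the groups.

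Cytokine receptors were higher in Runx1 WT in 20 of 24 tested and lower in 2 (median 1.94). Il2rb, the shared beta chain for interleukin 2 and interleukin 15, had 421 and 420.4 CPM in Runx1 WT, against 1.85 and 2.42 in Runx1 DN and 7.42 and 11.8 in mock (log2 fold change 7.61 ± 0.13, adjusted p = 4.7e-09, edgeR). Il17rb, a receptor chain for interleukin 25, had 319.6 and 348 CPM in Runx1 WT, against 2.80 and 2.57 in Runx1 DN and 59.5 and 57.4 in mock (log2 fold change 6.96 ± 0.12). Both were near 0 in Runx1 DN relative to Runx1 WT, with mock between. Il7r, the receptor that pro-T cells need for survival, had 129 and 146 CPM in Runx1 WT, against 8.57 and 6.90 in Runx1 DN and 124 and 109 in mock (log2 fold change 4.16 ± 0.13), with the Runx1 WT libraries near mock and the Runx1 DN libraries below. Il9r (3.35), Il27ra (2.99), Il12rb2 (2.74), Ifngr1 (2.57), Il17ra (1.40) and the common gamma chain Il2rg (1.34) were higher as well. Kit, the stem cell factor receptor, was low, with 264 and 331 counts in Runx1 WT, against 0 and 5 in Runx1 DN, and its fitted 6.72 ran from 5.81 without Runx1 DN replicate 1 to 11.14 without replicate 2. Of the Jak, Stat and Socs genes that act below these receptors, 12 of 18 were higher and 2 lower (median 0.66). The signal transducers Stat2 (1.69), Stat5a (1.28) and Stat3 (0.97) and the kinase Tyk2 (1.37) were higher, and Socs3, an inhibitor of cytokine signalling, was lower (-1.58).

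Genes of NK and cytotoxic cells were higher in 17 of 20 tested and lower in 0 (1 with upper-quartile scaling, in the fit of all 8 libraries, and without Runx1 WT replicate 2 or Runx1 DN replicate 2), with a median of 4.002, and 4 of the 34 members had no count in any of these libraries (Klrd1, Klrc1, Xcl1 and Crtam). Gzmb, the granule serine protease granzyme B, had 30.5 and 27.6 CPM in Runx1 WT, against 0.0861 and 0.112 in Runx1 DN and 0 and 0.173 in mock (log2 fold change 8.12 ± 0.24). Ctsw, a cathepsin of cytotoxic cells, had 131 and 132 CPM in Runx1 WT, against 0.258 and 0.224 in Runx1 DN and 1.62 and 1.42 in mock (log2 fold change 9.07 ± 0.16). Gzma, granzyme A, had 399 and 431 CPM in Runx1 WT, against 8.35 and 10.1 in Runx1 DN and 117 and 129.7 in mock (log2 fold change 5.49 ± 0.12), and Tbx21, the T-box factor of type 1 lymphocytes, had 241 and 229 CPM in Runx1 WT, against 19.03 and 16.3 in Runx1 DN and 17.2 and 21.5 in mock (log2 fold change 3.73 ± 0.11). For each of these the Runx1 WT libraries were the highest. Cd160 (5.68), Ccl5 (4.24), Serpinb9 (2.71), which inhibits granzyme B, and the signalling adaptor Hcst (2.45) followed. The summed level of the list was 1123 and 1162 CPM in Runx1 WT, against 80.8 and 72.0 in Runx1 DN and 175 and 194 in mock. In these bulk samples, more cells of a type and more RNA per cell cannot be told apart.

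Migration receptors and integrins were higher in 18 of 25 tested and lower in 2 (median 1.41). Itgae (chr11:72904097-72960951, mm9), the integrin alpha E chain that binds epithelial cadherin, had 335 and 351 CPM in Runx1 WT, against 0.689 and 1.01 in Runx1 DN and 1.33 and 2.60 in mock (log2 fold change 8.64 ± 0.15, adjusted p = 4.7e-09, edgeR). Its partner Itgb7 was higher too (4.73). Ccr9, the chemokine receptor of thymus and gut homing, had 174 and 204 CPM in Runx1 WT, against 2.63 and 2.91 in Runx1 DN and 16.6 and 18.9 in mock (log2 fold change 6.09 ± 0.14), and Cxcr6 (6.44), Cxcr4 (2.24), S1pr1 (3.75), the receptor for exit from the thymus, and Selplg (5.43), the selectin ligand, were higher. Of the activation and feedback genes, 11 of 22 were higher and 3 lower (median 0.51). Dusp2, a phosphatase of MAP kinases, had 297 and 273 CPM in Runx1 WT, against 5.73 and 5.82 in Runx1 DN (log2 fold change 5.62 ± 0.11). Pdcd1, the inhibitory receptor PD-1, had 17.4 and 27.8 CPM in Runx1 WT, against 0.517 and 0.447 in Runx1 DN (log2 fold change 5.54 ± 0.32). Tnfrsf9 (6.82, 7.67 without Runx1 DN replicate 2), Cd69 (3.66, 4.32 without the same library) and Egr1 (2.70) were higher, and Dusp1 (-1.20) was lower.

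Among Runx partners and cofactors, 7 of 11 tested were higher and 1, Runx1 itself, was lower (median 1.22). The Groucho-related corepressors Tle2 (339 and 303 CPM in Runx1 WT, against 52.1 and 51.6 in Runx1 DN, log2 fold change 2.63 ± 0.093), Tle4 (1.34), Tle3 (1.22) and Aes (1.27) were higher. Sin3a (-0.23) and Smarca4 (0.17), corepressor and chromatin remodeller, did not pass the threshold, although Sin3a passed it with RLE or upper-quartile scaling, in fits of 6 or 8 libraries and without Runx1 WT replicate 2 (-0.32) or Runx1 DN replicate 1 (-0.31). Forkhead factors and their targets gave 8 higher and 1 lower of 15 (median 0.24), with Foxp3, the regulatory T cell factor, at 2.79 ± 0.10 and Foxm1, which drives mitotic genes, lower (-1.13). Foxp3 and Foxm1 both overlap another row. The list gave 0 lower with such rows left out, and 3 lower with upper-quartile scaling or a replicate block. TGF-beta receptors and Smads split, 4 higher and 5 lower of 14 (median -0.16), with Skil, a repressor of Smads, at 4.61 and the ligand Tgfb3 at -1.62. Chromatin modifiers split as well, 7 higher and 8 lower of 20 (median -0.093). Tet2 (2.16), an oxidase of methylated cytosine, and Hdac7 (2.00), a deacetylase of thymocytes, were higher, and the methyltransferases Dnmt3b (-0.94), Dnmt3a (-0.83) and Ezh2 (-0.67) were lower.

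**Figure D3:**
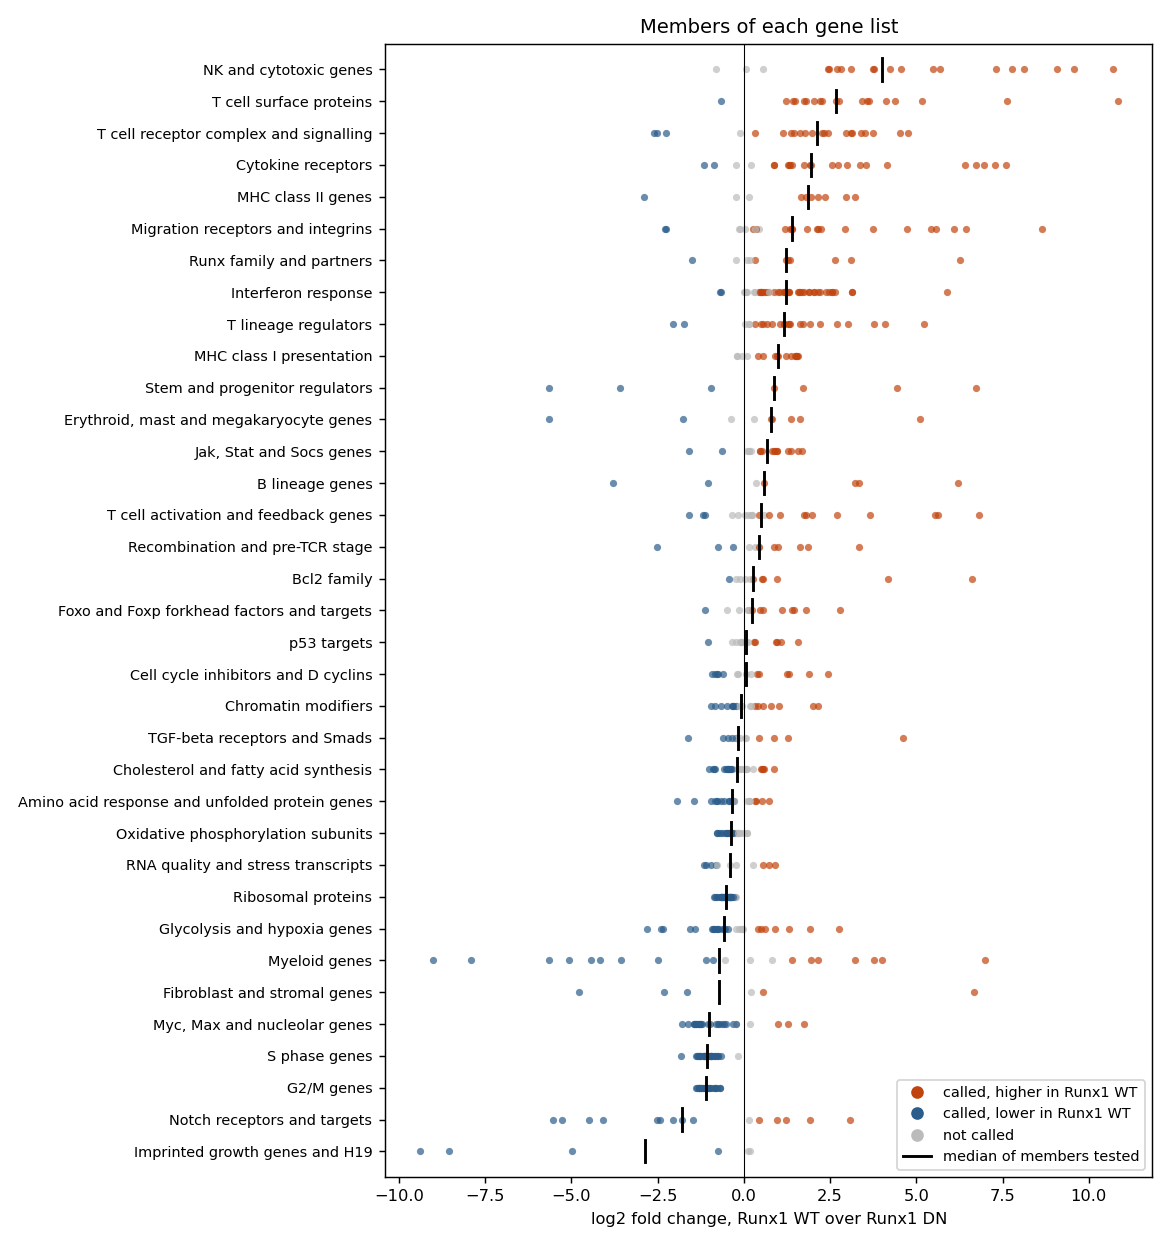
For each gene list, points are the log2 fold changes of its tested members (Runx1 WT over Runx1 DN) coloured by call, and the black bar is their median. The NK and cytotoxic list has a median of 4.002 and the S phase and G2/M lists medians of -1.07 and -1.10, against 0.011 over all genes tested, a value that depends on the scaling.

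Markers of other blood and tissue cells were mostly rare and moved in both directions. Of 40 myeloid genes, 20 were tested, 7 were higher and 10 lower (median -0.72), while Ctsg, Tlr2, Trem1 and Trem2 had no count in the 4 libraries. The summed myeloid level was 249.997 and 239 CPM in Runx1 WT, against 273 and 204 in Runx1 DN and 65.6 and 66.0 in mock. Spi1, which encodes PU.1, the factor that T cell precursors shut off at commitment, had 0.369 and 0.333 CPM in Runx1 WT, against 19.5 and 16.1 in Runx1 DN and 0.249 and 1.14 in mock (log2 fold change -5.64 ± 0.23). The Runx1 DN libraries were the only ones of these 6 above 2 CPM. Il1b, the cytokine interleukin 1 beta, had 1 and 0 counts in Runx1 WT, against 287 and 313 in Runx1 DN, and the single count gave a ratio of Runx1 DN over Runx1 WT of 648 (116 to 25656). Its fitted -9.01 was -11.27 with Runx1 WT replicate 1 left out and -8.16 with replicate 2 left out. The oxidase subunit Cybb (-4.16, -4.78 without Runx1 WT replicate 2) and the adaptor Tyrobp, at 2.81 and 2.41 CPM in Runx1 WT, against 15.9 and 13.5 in Runx1 DN, were lower. In the other direction, Fcer1g, the gamma chain of Fc receptors, which NK cells also use, had 70.6 and 73.1 CPM in Runx1 WT, against 0.775 and 0.373 in Runx1 DN (log2 fold change 6.99 ± 0.19), and the granule protease Prtn3 was higher (4.01).

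Of 20 B lineage genes, 7 were tested, with 4 higher and 2 lower (median 0.58, and 1.22 without Runx1 DN replicate 2), and the B cell kinase gene Blk had no count. Cd22, an inhibitory B cell lectin, had 12.8 and 13.6 CPM in Runx1 WT, against 186 and 183 in Runx1 DN and 6.39 and 9.33 in mock (log2 fold change -3.80 ± 0.094), while Cr2, the complement receptor, had 147 and 131 CPM in Runx1 WT, against 1.72 and 1.98 in Runx1 DN (log2 fold change 6.22 ± 0.14). The summed level of the B lineage list was 264 and 249.1 CPM in Runx1 WT, against 236 and 239 in Runx1 DN and 78.4 and 93.8 in mock. Of 20 erythroid, mast cell and megakaryocyte genes, 9 were tested, with 5 higher and 2 lower (median 0.78), and 7 including Hbb-b1, Fcer1a and Pf4 had no count. Cpa3, a mast cell protease also known from T cell progenitors, was higher, at a log2 fold change of 5.11 ± 0.18. The summed level of this list was 399.8 and 436 CPM in Runx1 WT, against 116 and 103 in Runx1 DN and 219 and 204 in mock. Stem and progenitor regulators gave 4 higher and 3 lower of 7 tested among 26 (median 0.88, but -0.20 with Runx1 WT replicate 1 left out and -0.64 with replicate 2 left out), with Zeb2, a repressor with roles in early progenitors, at -3.58. Those 2 fits tested 12838 and 12811 genes, against 12529, so their medians may rest on other members of the list. Fibroblast and epithelial genes gave 2 higher and 3 lower of 6 tested among 18 (median -0.72), with Cdh1, epithelial cadherin, at 0.850 and 0.555 CPM in Runx1 WT, against 17.5 and 21.4 in Runx1 DN (-4.78), the matrix protein Fbln2 at 78.1 and 62.0 CPM in Runx1 WT, against 0.732 and 0.634 in Runx1 DN (6.68), and Lum and Krt18 without a count. The part of other cells in any of the results was not tested.

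Genes of division and biosynthesis were lower in Runx1 WT in most cases. Of 28 S phase genes, 27 were lower and 0 higher (median -1.07), and of 28 G2/M genes, 28 were lower and 0 higher (median -1.10). Summed S phase levels were 2853 and 2605 CPM in Runx1 WT, against 5355 and 5438 in Runx1 DN and 6813 and 6735 in mock. For G2/M genes the sums were 2707 and 2695 CPM in Runx1 WT, against 5575 and 6017 in Runx1 DN and 6550 and 6871 in mock. Mock was thus highest and Runx1 WT lowest for both phases, and mock exceeded both groups for 26 of the 27 S phase genes and 26 of the 28 G2/M genes that were lower. Examples are Rrm2, the ribonucleotide reductase subunit (-1.39), the replicative helicase subunit Mcm3 (-1.31), cyclin B1 (Ccnb1, -1.31), its kinase Cdk1 (-1.29) and the kinase Aurkb (-1.30). Myc, the growth factor-responsive activator of ribosome production, had 154 and 135 CPM in Runx1 WT, against 533 and 474 in Runx1 DN and 765 and 712 in mock (log2 fold change -1.80 ± 0.10), and of 28 Myc, Max and nucleolar genes 23 were lower and 3 higher (median -1.02). Mxd1, which competes with Myc for Max, was among the higher ones (1.76), and Polr1b, a subunit of RNA polymerase I, among the lower (-1.61).

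Ribosomal protein genes, many of which have near-identical copies elsewhere in the genome, were lower in 31 of 32 and higher in 0, by a smaller median of -0.51, with summed levels of 24766 and 20394 CPM in Runx1 WT, against 33718 and 31437 in Runx1 DN and 42377 and 44257 in mock. Between the Runx1 WT libraries, replicate 2 lay below replicate 1 for all 32 by a median of -0.28. Oxidative phosphorylation subunits were lower in 17 of 30, with none higher (median -0.36), for example Atp5b (-0.76) and Cycs (-0.78). Replicate 2 lay above replicate 1 for 1 of these 30 genes in Runx1 WT (median difference -0.24) and for 5 in Runx1 DN (-0.092). Glycolysis and hypoxia genes split, with 16 lower and 7 higher of 28 (median -0.56). Eno1 (-1.41) and Pdk1 (-1.56) were lower, and Hk1 (1.92) and Ndrg1, a hypoxia-induced gene, were higher. Ndrg1 had 56.4 and 56.0 CPM in Runx1 WT, against 8.22 and 8.35 in Runx1 DN and 182 and 1494 in mock, with the mock libraries far apart from each other. In a fit of all 8 libraries, which shares the spread of mock and Satb1, Ndrg1 was not called and the list gave 7 lower and 3 higher. Ndrg1 was not called in the fit of 6 libraries without mock either, where the list gave 4 higher. Cholesterol and fatty acid synthesis gave 13 lower and 5 higher of 27 (median -0.20, and 3 higher with overlapping rows left out). The median difference of replicate 2 from replicate 1 in that list was -0.14 in Runx1 WT and -0.15 in Runx1 DN. The amino acid response and unfolded protein genes gave 14 lower and 4 higher of 24 (median -0.34), with Ddit4 at -1.93 and the cystine transporter Slc7a11 at -1.43. Replicate 2 lay above replicate 1 for 1 of these 24 genes in Runx1 WT (median difference -0.20) and for 0 in Runx1 DN (-0.33). The replicate shift in Runx1 DN was thus about as large as the group median. By replicate number, the median difference of Runx1 WT from Runx1 DN was -0.38 for libraries numbered 1 and -0.28 for those numbered 2. In that list 1 gene was higher with upper-quartile scaling or with no filter. Leaving out single libraries also moved counts of both lists.

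Regulators of the cell cycle and of death did not move together. Cell cycle inhibitors and D cyclins gave 6 higher and 5 lower of 15, with a median of 0.057 that turned negative with upper-quartile scaling, with Runx1 WT replicate 1 left out (-0.13) and with Runx1 DN replicate 2 left out (-0.22). The retinoblastoma family members Rbl2 (2.46) and Rb1 (1.89) were higher, and Cdk6 (-0.78) and cyclin D3 (Ccnd3, -0.93) were lower. Of 11 Bcl2 family genes, 6 were higher and 1 lower (median 0.27). The lower count was 2 with upper-quartile scaling or a replicate block, and it rose or fell with single libraries left out. Bcl2, which protects lymphocytes from death, had 19.8 and 25.5 CPM in Runx1 WT, against 1.46 and 1.04 in Runx1 DN (log2 fold change 4.18 ± 0.22). p53 targets gave 6 higher and 1 lower of 15 (median 0.057, negative with upper-quartile scaling), with Sesn1 at 1.56 and Aen at -1.03.

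Antigen presentation and interferon response genes were higher in Runx1 WT. Of 16 MHC class I genes, 12 were higher and 0 lower (median 0.98), where 1 was lower with RLE or upper-quartile scaling, with DESeq2, in fits of 6 or 8 libraries and without Runx1 WT replicate 2. B2m, the light chain of class I molecules, had 1273 and 1408 CPM in Runx1 WT, against 472 and 476 in Runx1 DN and 306 and 360.0 in mock, with the Runx1 WT libraries highest. Class I heavy chains such as H2-K1 (1.47) share near-identical sequence, which makes single genes uncertain. Of 10 class II genes, 7 were higher and 1 lower (median 1.87), with the invariant chain Cd74 at 3.21, the class II activator Ciita at 1.94 and the protease Ctss at -2.89. Of 46 interferon response genes, 37 were higher and 2 lower (median 1.21). Irf7, the factor that amplifies the response, had 299 and 343 CPM in Runx1 WT, against 47.0 and 61.8 in Runx1 DN and 29.2 and 32.5 in mock (log2 fold change 2.56 ± 0.14), and Ifitm1 (5.90), Oas1a (3.14) and Dhx58 (3.14) were higher, where Oas genes have near-identical copies. Mock lay below both groups for all 12 class I genes and for 32 of the 37 interferon genes that were higher.

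Interferon genes also differed between replicates. Replicate 2 lay above replicate 1 for 42 of 46 genes in Runx1 WT, by a median of 0.30 on the log2 scale, and for 42 of 46 in Runx1 DN, by 0.39. Their summed level was 11501 and 14028 CPM in Runx1 WT, against 6202 and 7145 in Runx1 DN and 3569 and 3463 in mock. Taken by replicate number, the median difference of Runx1 WT from Runx1 DN was 1.21 for the libraries numbered 1 and 1.22 for those numbered 2, a comparison added after the data were seen. Both exceeded the median shift between replicates. Transcripts that track RNA quality and handling stress gave 3 higher and 4 lower of 11 (median -0.41, but 0.14 without Runx1 DN replicate 1). The heat shock gene Hspa1a was lower (-1.11, not called without Runx1 WT replicate 2, -0.89, or by DESeq2, -1.12), and the nuclear RNA Neat1 was higher (0.91). The part of RNA quality in the results was not tested.

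**Figure D4:**
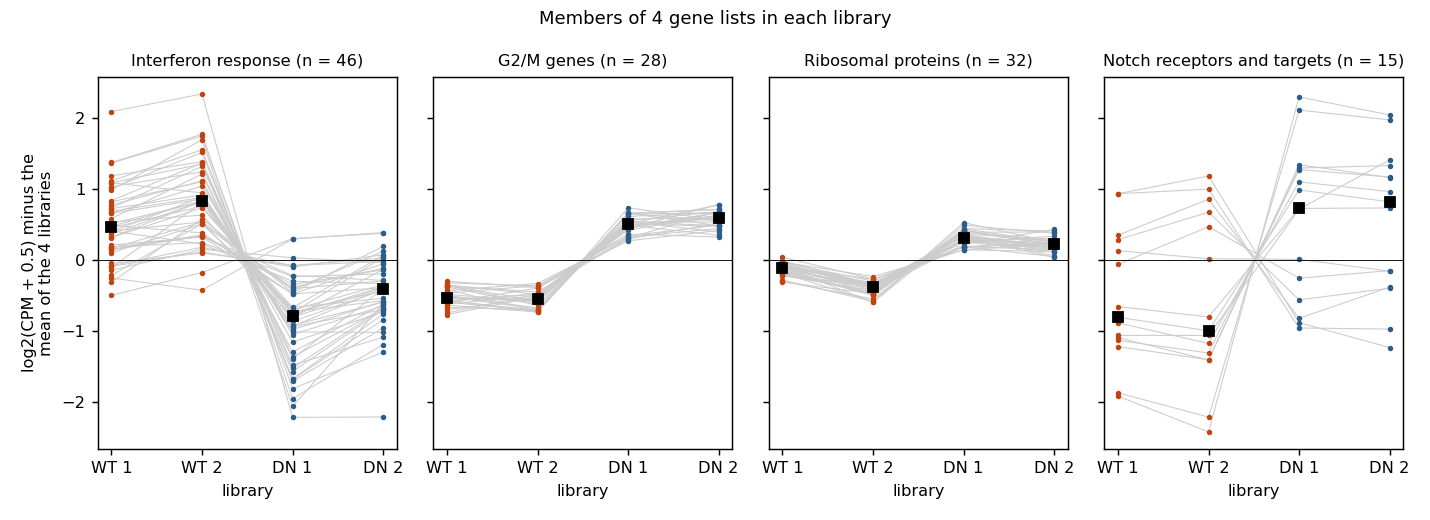
For 4 gene lists, each grey line is a gene and black squares are list medians, as log2(CPM + 0.5) minus the gene's mean over the 4 libraries, with the Runx1 WT libraries left of the Runx1 DN libraries. Interferon genes lie higher in replicate 2 than in replicate 1 of each group, while G2/M genes separate by group, with a median difference of -1.10.

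Several of the largest differences lay on neighbouring genes. Around H19 on chromosome 7 (mm9), within 300 kb, Syt8, Tnni2, Tnnt3, Mir675, H19, Igf2 and Igf2os were all at least 8-fold lower in Runx1 WT, Mir675 lying inside H19 and sharing its reads. In the same window Prr33 (-2.77) and Mrpl23 (-0.89) were lower to a smaller degree, Lsp1 (-0.23) was not called, and Ctsd (0.76), a lysosomal protease, was higher. Tnni2 and Tnnt3 encode troponin subunits of fast skeletal muscle. Tnni2 had 0 and 3 counts in Runx1 WT, against 435 and 502 in Runx1 DN, a ratio of Runx1 DN over Runx1 WT of 338 (115 to 1640), and its fitted -8.28 was -7.33 with Runx1 WT replicate 1 left out and -11.91 with replicate 2 left out. Tnnt3 had 4 and 2 counts in Runx1 WT, against 578 and 849 in Runx1 DN. Of the 6 imprinted growth genes tested, 4 were lower and 0 higher, with a median of -2.86, the midpoint of the unlike genes Peg3 and Cdkn1c. The median was -0.67 and -1.08 with Runx1 WT replicates 1 and 2 left out and -0.92 without Runx1 DN replicate 1. Those fits tested 12838, 12811 and 12847 genes, against 12529, so their medians may rest on other members. Peg3 stood at -4.99 and Cdkn1c at -0.74 (not called without Runx1 WT replicate 1, -0.46), and Mest (0.19) and Igf2r (0.13) were not called, although Igf2r was without Runx1 WT replicate 1 (0.28).

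**Figure D5:**
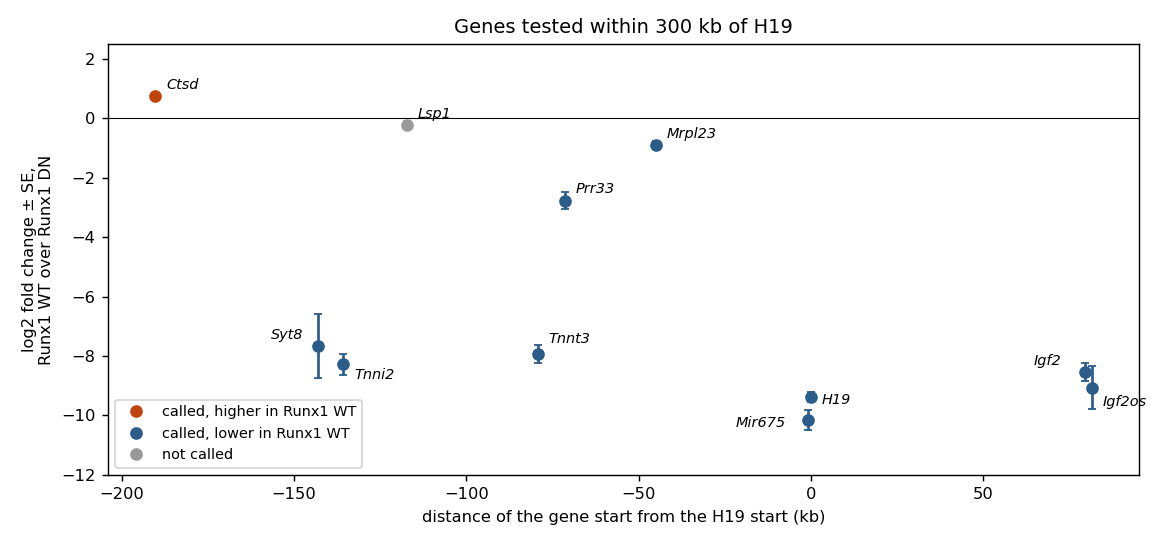
Log2 fold changes ± SE of Runx1 WT over Runx1 DN of the tested genes within 300 kb of H19, coloured by call and placed by distance from the H19 start in kb. Tested genes from Syt8 to Igf2os lie below 0, among which Lsp1 at -0.23 was not called, while Ctsd at 0.76 lies above.

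In a search made after the values were seen, runs of at least 3 called genes at least 8-fold changed in the same direction, each within 200 kb of the next, numbered 31 with 117 genes higher and 13 with 54 genes lower, and the largest run in each direction held 9. No test was made of these runs, and overlapping genes count separately in them. On chromosome 9 the homing receptors Ccr9 and Cxcr6 were higher beside Lztfl1, Xcr1, Slc6a20a and Slc6a20b (chr9:123502938-123771246, mm9). On chromosome 11, Itgae was higher beside the calcium pump Atp2a3 and the channel P2rx5 (chr11:72774671-72986189). On chromosome 15, Il2rb ran with Elfn2 and the galectins Lgals1 and Lgals2 (chr15:78310979-78760895), and on chromosome 14, Il17rb ran with Chdh and the calcium channel gene Cacna1d (chr14:30809354-31166672). Among genes lower in Runx1 WT, Cd22 lay in a run with free fatty acid receptors on chromosome 7 (chr7:31514798-31896016), and a keratin cluster that includes Krt17 lay on chromosome 11 (chr11:99953506-100131185).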

How the data were processed

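RNA from transduced Scid.adh.2c2 cells was sequenced as single reads of 50 nt on an Illumina HiSeq2500 from NEBNext Ultra RNA libraries, which do not mark the strand, per the labels' protocols. The deposited values are whole-number counts, made by the authors with HOMER over the exons of RefSeq genes in mm9, with transcripts merged per gene and neither length nor depth adjusted, per the file headers; the table's name gives another unit. Tools named in the submitters' processing notes are HOMER, edgeR 3.6.8, RSEM 1.2.25, STAR 2.4.0 and Trimmomatic 033. The log2 fold changes and p-values in the authors' deposited table set each construct against mock and were not used here, and its gene length is another deposited measure.

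From the counts of the 4 Runx1 WT and Runx1 DN libraries, with totals of 23624498 to 27135363, edgeR 4.0.16 (R 4.3.3) fitted its quasi-likelihood model with TMM scaling and filterByExpr defaults (minimum count 10, total 15), which left 12529 of 24505 genes, 17937 of which had a count in these libraries. CPM use TMM factors. P-values are two-sided with Benjamini-Hochberg adjustment over all genes tested. The test gives no standard errors, so these were derived as the absolute log2 fold change divided by the square root of its F statistic. Alternatives were other scalings, filters, libraries in the fit, limma voom (limma 3.58.1), DESeq2 1.42.0, a replicate block and the omission of each library. Group labels came from the sample titles. Of the tested genes, 2950 overlap another row on the genome and 46 share all their counts with another row.

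Genes named are the Runx genes and Cbfb, the 20 of largest difference in each direction among called genes without overlap between groups and with at least 2 CPM in the higher group (predicted models left out), and up to 10 per list by adjusted p. Members of the lists of other cell types could be named as well. Genes named around H19, in runs of neighbours or as pro-T markers and absent from those rules were chosen after their values were seen. The comparison and the lists were chosen with earlier results of these data known. Promoter windows and their coordinates are RefSeq's, build GRCm38.p6, matched by symbol for 9538 tested genes, and all other coordinates are mm9 as deposited. Some genes are not reported here.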

Additional observations from a re-analysis of the deposited data

Results flagged for a closer look

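Cd7, the gene with the largest difference among those with a count in all 4 libraries, also had a signal in the Satb1 libraries, which the comparison does not use. Its mean was 16.1 CPM in the Satb1 group (15.8 and 16.4), against 1.27 CPM in mock (1.29 and 1.25). It drew attention because the level lay above that of the control libraries in data outside the comparison, and no test was made of it.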

How the results depend on the processing

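Between 6419 genes (rows that overlap or duplicate another left out, so that 9576 were tested) and 9650 genes were called across the alternatives, against 8328, and 0 genes called in both settings changed sign. Among scalings, upper-quartile scaling called 3831 higher and 4650 lower, so that 45.2% of calls were higher, against 51.2%, and library totals alone gave 54.2%. DESeq2 called 7631 genes and limma voom 8305, while 8248 were called with no filter and 7588 with a minimum count of 50. A fit of all 8 libraries called 8676 and a fit of 6 libraries called 8537. Leaving out each replicate in turn gave 7450 to 8281 genes, 3780 to 4179 higher, 3670 to 4102 lower, and 3264 to 3539 with at least a 2-fold difference. In those fits the lone library of a group is assumed to vary like the pair of the other group. The replicate numbers are shared by both groups, but over 2 pairs the deviations of same-numbered libraries correlated at 0.208 across genes, the replicate difference had the same sign in both groups for 66.0% of genes, and nothing in the labels says that a number marks a shared culture. With a replicate block, 9650 genes were called, 4884 higher and 4766 lower, and lower oxidative phosphorylation genes numbered 26, against 17. The block also brought Sin3a, Smarca4 and Igf2r past the threshold and gave 2 lower MHC class I genes, against 0, and 1 lower NK and cytotoxic gene, against 0. Over the 359 named genes, 5905 of 6013 values kept their side of the threshold, 72 fell below it and 36 passed it. Where either fit called the gene, 0 values reversed. Changes of sign in genes called by neither fit were not counted as reversals, as for Fosb (-0.41, but 0.51 without Runx1 DN replicate 1). List medians that changed sign were those of cell cycle inhibitors (-0.028 with upper-quartile scaling, -0.15 with no filter, -0.15 without overlapping rows, -0.22 to 0.28 with each library left out in turn), p53 targets (-0.028 with upper-quartile scaling, -0.097 with no filter), stem regulators (-0.64 to 0.91 with each library left out), fibroblast genes (0.38 with a minimum count of 50) and RNA quality transcripts (0.26 with a minimum count of 50, -0.847 to 0.135 with each library left out). The cause was not tested, except that the stricter filter and the omission of rows test fewer members. The omission of rows also lowered the ribosomal genes called to 17 and the MHC class I genes called higher to 7. Fits with a library left out tested 12808 to 12847 genes and the fit with no filter 17937, against 12529. List medians in those fits may therefore rest on added members with low counts, and were not recomputed over the same members. Depth limits the ratios of genes with 0 to 3 counts in a group, whose fitted values moved with single libraries.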
